A study of Mus musculus with 60 samples.

Results

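The genes described here are imprinted genes of the mouse that lie outside the Mest and Dlk1-Dio3 loci. The set was defined by name, as 33 genes in 18 loci, and its members are the probe sets whose annotated symbol is exactly that of one of these genes. There were 75 such probe sets, 53 on the MOE430A array and 22 on the MOE430B array, and they covered 30 of the 33 genes. H19, Zrsr1 and Peg13 had no probe set that carried their symbol alone. Of the 30 genes, 22 were tested, against 13181 tested of 18193 genes named by a single symbol in the whole series. A probe set was tested where its signal lay above a floor on at least 5 of 30 arrays, the floor being a log2 signal of 4.61 on MOE430A and 4.15 on MOE430B. Each gene was read from its brightest tested probe set, with probe sets of the x_at kind, which can match related transcripts, taken last and MOE430A taken before MOE430B.

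RNA came from undifferentiated embryonal carcinoma cells of the mouse, the pluripotent stem cells of a teratocarcinoma. There were 6 strains, namely P19, its substrain P19CL6, and CL6G26, CL6G36, CL6G45 and CL6G52, which are sublines of P19CL6. All were labelled as C3H, male and embryonic, were grown in the same medium with serum, and carried no named transgene or treatment. P19CL6 is known for forming heart muscle readily, and each subline shares with P19CL6 whatever that strain already carried. The labels do not say what the sublines were derived for or whether each is a single clone. Every strain had 5 biological replicates, each hybridised to both array types, which makes 60 arrays. The labels do not say that the replicates came from separate cultures, so each p-value reflects only the variation among these samples, which may be technical.

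An imprinted gene is transcribed mainly from the copy inherited from the father or mainly from the copy inherited from the mother. The copies are told apart by marks set down in the egg or sperm, in most cases DNA methylation. Many paternally expressed genes promote fetal growth and many maternally expressed genes restrain it. In cultured pluripotent cells these methylation marks are known to be unstable, and the levels of imprinted genes can differ between sublines of the same parent line. The arrays measure the summed level of both copies and so do not say which allele was transcribed. In these bulk samples, fewer cells that express a gene and less RNA per cell cannot be told apart.

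Some arrays stood apart from others of their strain. On the first principal component of MOE430A, computed without the imprinted genes and holding 19.2% of the variance, P19 replicates 1, 2 and 3 stood at 48.9, 45.5 and 50.1, while P19 replicates 4 and 5 stood at 13.5 and 12, beside the P19CL6 arrays at 1.6 to 13.7. CL6G52 replicate 1 stood at -22.3, beside CL6G36 and CL6G45, and the other CL6G52 arrays stood at 3.4 to 5.1. Within P19CL6, replicates 1 and 2 lay at 3.8 and 1.6 and replicates 3 to 5 at 11.4 to 13.7. The labelled cell type was checked against 12 embryonal carcinoma markers, of which 10, among them Pou5f1 and Sox2, lay above the floor on all 30 arrays and 1, Zfp42, on none. Nanog and Tdgf1 stayed above the floor on all arrays but fell in CL6G36, CL6G45 and CL6G52, Nanog by 1.10, 1.02 and 0.66 and Tdgf1 by 0.37, 0.35 and 0.54 (adjusted p up to 0.0189). Other markers of this list went the other way. Utf1 rose by 0.55 in CL6G36 and 0.68 in CL6G45 (limma, adjusted p = 0.000234 and 1.92e-05). Epcam rose by 0.54 in CL6G45 (limma, adjusted p = 0.0339).

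Some markers of other cell types moved with the sublines. Signals were summed on the linear scale, so the brightest gene of a list weighs most. Among trophoblast markers that was Eomes, with a mean log2 signal of 9.02 in P19CL6, and among neural markers Stmn2, at 8.93. The summed signal of trophoblast markers, 8 of 10 with a probe set, ran from 625 to 831 in P19CL6 and from 539 to 614 in CL6G26, against 305 to 447 in CL6G36, 312 to 423 in CL6G45 and 288 to 427 in CL6G52. Eomes, above the floor on all 30 arrays, fell in the last 3 by 1.34, 1.0 and 1.40. Cdx2 was above it on 3 of 5 P19CL6 arrays and on 0 in each of those sublines. Hand1, Plet1 and Gata3 were above it on 29, 26 and 20 arrays, and Elf5 and Tpbpa on 0. Means in P19CL6, CL6G36, CL6G45 and CL6G52 were 5.48, 5.66, 5.2 and 5.17 for Hand1. They were 5.47, 4.98, 5.35 and 5.13 for Plet1 and 5.22, 5.16, 4.09 and 4.97 for Gata3. Summed extraembryonic endoderm markers ran from 301 to 373 in P19CL6, from 300 to 385 in CL6G26, and from 203 to 247 in CL6G36, 196 to 262 in CL6G45 and 231 to 305 in CL6G52. Among them Foxa2, above the floor on 29 arrays, fell in the last 3 by 1.99, 1.38 and 1.89. Dab2 was above it on all 30, and Ttr and Lama1 on 0. The mean of Dab2 was 5.59 in P19CL6 and 5.41, 5.28 and 6.07 in CL6G36, CL6G45 and CL6G52. Summed mesoderm and heart markers ran from 250 to 401 in P19CL6, from 263 to 293 in CL6G26, and from 178 to 236 in CL6G36, 191 to 248 in CL6G45 and 205 to 233 in CL6G52. Mixl1 was above the floor on all 5 P19CL6 arrays and on 0 CL6G36 arrays, and fell by 1.77 in CL6G45 and 1.56 in CL6G52. Actc1 fell by 0.63, 0.7 and 0.79 in CL6G36, CL6G45 and CL6G52. Other genes of the list did not fall alike. Means in P19CL6, CL6G36, CL6G45 and CL6G52 were 5.33, 5.12, 5.35 and 5.1 for Nkx2-5, above the floor on 29 arrays. They were 4.56, 4.24, 3.89 and 4.56 for Tnnt2, above it on 19. For Tbx5, above it on 11, they were 3.16, 4.01, 4.4 and 3.71. Summed neural markers ran from 849 to 953 in P19CL6, 777 to 833 in CL6G26, 1140 to 1340 in CL6G36, 931 to 1050 in CL6G45 and 1040 to 1240 in CL6G52. Nes, Tubb3 and Stmn2 were above the floor on all 30 arrays, with Stmn2 higher by 0.74 in CL6G36 and 0.50 in CL6G52, and Sox1 and Neurog2 on 0. The part of these shifts in the results below was not tested.

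Among the imprinted genes, Peg3 and Zdbf2 fell in all 4 sublines, and Sgce fell in CL6G26, CL6G36 and CL6G45. In CL6G26, 4 of the 22 tested genes passed the threshold of an adjusted p under 0.05 (limma with Benjamini-Hochberg adjustment, used throughout), all lower: Igf2, Peg3, Sgce and Zdbf2. Of all genes tested in that comparison 1.24% passed, and 0.827% passed as lower. In CL6G36, 11 of 22 passed against 13.5% of all genes (6.83% higher and 6.72% lower), with 4 higher (Gnas, Grb10, Impact and Plagl1) and 7 lower (Igf2, Ndn, Peg10, Peg3, Phlda2, Sgce and Zdbf2). In CL6G45, 7 of 22 passed against 13.3% of all genes (6.55% higher and 6.71% lower), with Gnas higher and Ndn, Peg10, Peg3, Phlda2, Sgce and Zdbf2 lower. In CL6G52, 4 of 22 passed against 3.18% of all genes (1.38% higher and 1.8% lower), with Plagl1 and Ube3a higher and Peg3 and Zdbf2 lower. Peg10 met the filter on low signal through P19 and P19CL6 arrays only, so it had to differ from the sublines once tested, and without it the counts were 10 in CL6G36 and 6 in CL6G45. The 4 subline comparisons share the P19CL6 arrays, so they are not independent of each other. Fitted changes past 2-fold were fewer, with 0 in CL6G26, 3 in CL6G36 (Peg10, Peg3 and Plagl1), 3 in CL6G45 (Peg10, Peg3 and Zdbf2) and 1 in CL6G52 (Plagl1), against 0.258%, 1.46%, 1.38% and 0.501% of all genes. With signals raised to the floor, Peg3 in both sublines and Zdbf2 in CL6G45 kept a 2-fold change, while Peg10 and Plagl1, which lie partly or wholly under the floor, did not. Without P19CL6 replicate 3 the CL6G36 count was 7 and the CL6G52 count 2. The CL6G52 count was also 2 without CL6G52 replicate 3, 4 or 5. The share of all genes was not computed for these fits. Without CL6G52 replicate 1, the array that stood apart, the same 4 genes passed in CL6G52 against 4.89% of all genes.

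**Figure D1:**
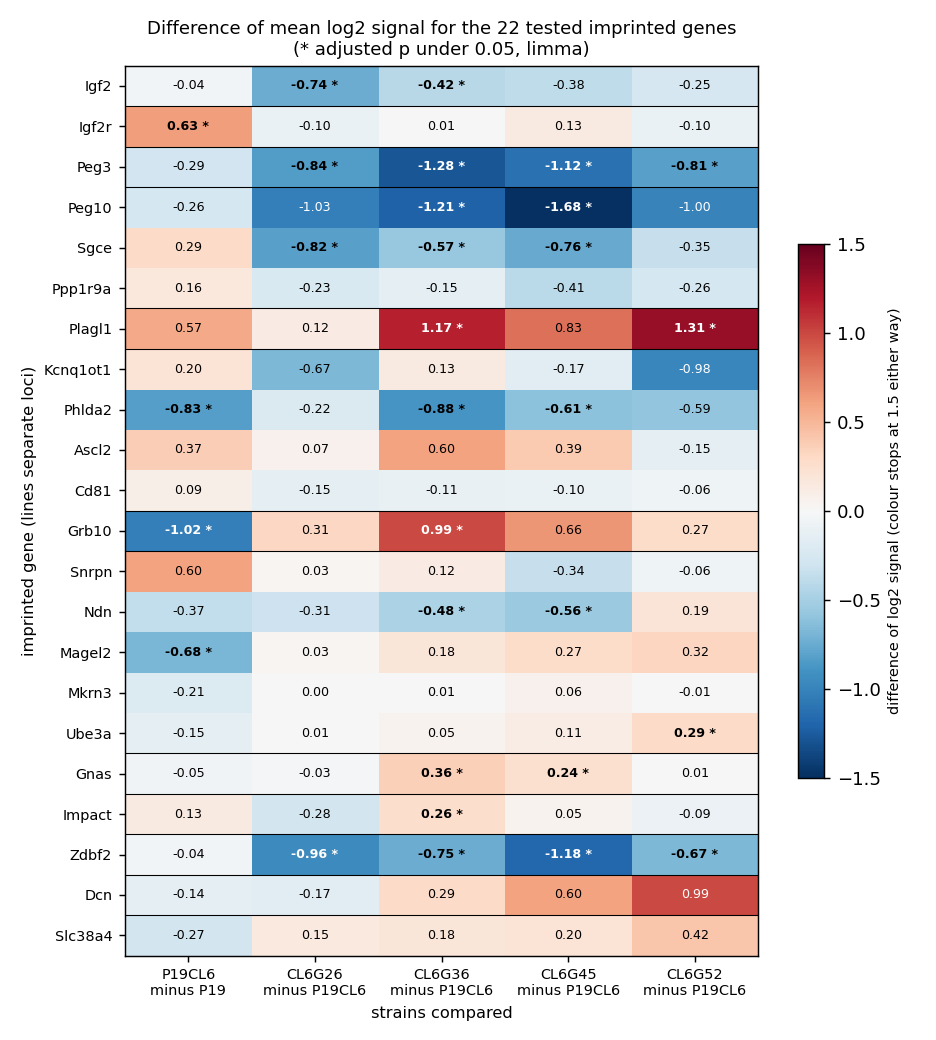
Difference of mean log2 signal, first strain minus second, for each of the 22 tested imprinted genes (rows, grouped by locus) in each of 5 comparisons (columns), 5 arrays per strain; asterisks mark an adjusted p under 0.05. Peg3 and Zdbf2 are lower with an asterisk in all 4 subline columns, while P19CL6 against P19 has asterisks for Igf2r, Phlda2, Grb10 and Magel2.

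The median difference over the 22 genes was -0.16 in CL6G26, 0.03 in CL6G36, -0.03 in CL6G45 and -0.07 in CL6G52, beside medians of all genes between -0.01 and 0.00. By allele, 13 of the tested genes are known as paternally expressed and 7 as maternally expressed, Ube3a among the latter although its imprint is known in neurons, and for Grb10 and Gnas the active allele depends on promoter or tissue. Of the 13 paternally expressed genes, 4 fell in CL6G26, 6 in CL6G36, 5 in CL6G45 and 2 in CL6G52, and 2 rose in CL6G36 and 1 in CL6G52. The 6 and the 5 include Peg10, which had to differ once tested. Of all genes, 0.827%, 6.72%, 6.71% and 1.8% passed as lower in these comparisons. The share that passed as higher was 6.83% in CL6G36 and 1.38% in CL6G52. Of the 7 maternally expressed genes, Phlda2 fell in CL6G36 and CL6G45, and Ube3a rose in CL6G52. All of these calls were made on quantile-normalized arrays. On the signals as the authors deposited them, with no further scaling, 1 gene passed in CL6G26 (Zdbf2), 3 in CL6G36 (Grb10, Peg3 and Phlda2), 4 in CL6G45 (Peg10, Peg3, Sgce and Zdbf2) and 0 in CL6G52. The shares of all genes past the threshold under that scaling were 0.258%, 2.5%, 2.92% and 1.3%. At an unadjusted p under 0.05, limma gave 6 of 22 genes in CL6G52 on the deposited signals, beside 12.4% of all genes. The spread between replicates was larger on those signals, with an SE for Peg3 of 0.19 against 0.12 and for Gnas of 0.14 against 0.05.

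Peg3, a paternally expressed zinc finger gene that regulates growth and maternal behaviour, lies head to head with Usp29, a paternally expressed ubiquitin protease gene, and both start from the same imprinted interval. The bases between the outermost annotated ends of both genes, outside the annotated transcripts, are shown because Peg3 fell in every subline, and the 250 bases before the first annotated start of Zdbf2 and before that of Plagl1 are shown beside them because Zdbf2 fell with Peg3 while Plagl1 rose in part of the sublines. Capitals mark TGCCGC or its reverse complement GCGGCA, the letters that the imprint-protecting protein ZFP57 is known to bind when they are methylated, and it was the only motif searched, on both strands. The sequences are from RefSeq on GRCm38.p6, at chr7:6730463-6730558 on the minus strand for Peg3, chr1:63200108-63200357 on the plus strand for Zdbf2 and chr10:13090582-13090831 on the plus strand for Plagl1.
Peg3: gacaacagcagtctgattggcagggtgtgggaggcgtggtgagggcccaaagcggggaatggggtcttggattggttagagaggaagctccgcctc
Zdbf2: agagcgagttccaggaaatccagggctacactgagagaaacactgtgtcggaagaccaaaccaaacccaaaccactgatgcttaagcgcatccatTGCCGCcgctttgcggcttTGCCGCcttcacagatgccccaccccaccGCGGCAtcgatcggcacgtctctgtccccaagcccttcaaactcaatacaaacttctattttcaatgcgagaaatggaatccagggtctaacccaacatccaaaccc
Plagl1: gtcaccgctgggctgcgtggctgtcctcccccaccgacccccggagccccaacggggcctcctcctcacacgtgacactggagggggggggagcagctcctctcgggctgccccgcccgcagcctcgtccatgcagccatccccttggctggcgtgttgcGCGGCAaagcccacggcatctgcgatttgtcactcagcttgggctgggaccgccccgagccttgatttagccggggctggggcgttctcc

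The printed Zdbf2 window held 3 matches and 13 CG dinucleotides, and the window before another annotated Zdbf2 start, further along the gene and not printed, held 0 matches and 26 CG dinucleotides. The Plagl1 window held 1 match and 19 CG dinucleotides, and the 96 bases between the ends of Peg3 and Usp29 held 0 matches and 3 CG dinucleotides. Over the imprinted genes, 26 had at least 1 window of 250 bases before an annotated start, and 4 of their 41 windows held the motif, those of Zdbf2, Plagl1, Nap1l5 and Zim1. Over all 32851 such windows of the RefSeq table, 8.68% held it. The median number of CG dinucleotides per window was 10 for the imprinted genes and 6 for all windows. A match describes the letters only, and methylation was not measured in these samples.

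Peg3 was above the floor on all 30 arrays. Its log2 signals were 9.74, 9.70, 10.31, 10.06 and 10.08 in P19CL6 and 10.09 to 10.46 in P19. In CL6G26 the arrays read 9.31, 9.21, 8.98, 9.04 and 9.14, a difference from P19CL6 of -0.84 ± 0.12 (SE, adjusted p = 2.91e-05). In CL6G36 they read 8.47, 8.55, 8.80, 8.81 and 8.84, a difference of -1.28 ± 0.12 (adjusted p = 2.48e-09), which means that Peg3 was 2.43-fold brighter in P19CL6. CL6G45 was even, at 8.86, 8.85, 8.86, 8.90 and 8.81, with a difference of -1.12 ± 0.12 (adjusted p = 7.39e-08). CL6G52 read 8.61, 9.14, 9.27, 9.40 and 9.39, a difference of -0.81 ± 0.12 (adjusted p = 3.76e-05). No subline array reached the lowest P19CL6 array, and replicate 1 of CL6G52, which stood apart on the principal component, was the lowest of its strain. Leaving out that replicate gave a CL6G52 difference of -0.68 (adjusted p = 5.86e-05, range over its alternatives 7.87e-06 to 0.0547). The highest p of that range, and that of 0.18 for CL6G26 (lowest 7.36e-06), came from the deposited scaling, where the differences were -0.78 and -0.65, each ± 0.19 (SE), and neither passed. A further Peg3 probe set, 1417355_at, fell by 0.97, 1.15, 1.15 and 0.70 in CL6G26, CL6G36, CL6G45 and CL6G52, with adjusted p of 7.61e-08, 3.37e-10, 1.83e-09 and 2.14e-05. The probe set 1417356_at fell in CL6G36 and CL6G45, by 1.27 and 0.68 (adjusted p = 0.00012 and 0.0353), and gave -0.80 and -0.47 in CL6G26 and CL6G52 (adjusted p = 0.0596 and 0.254). The 4 sublines differed among themselves, with a range of their means of 0.47 (moderated F test, adjusted p = 0.0054), lost with the deposited scaling only (0.0704, lowest over its alternatives 6.04e-05).

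The other genes of the Peg3 domain were not detected often enough to test. Usp29 had 2 probe sets, above the floor on 0 and 1 of 30 arrays, with log2 signals of 0.0 to 4.14 and 1.71 to 4.9. Zim1, a maternally expressed zinc finger gene beside Peg3, was above the floor on 0 of 30 arrays, at 0.0 to 3.64.

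Zdbf2 is a paternally expressed gene of a zinc finger protein whose transcription is known to be set at implantation and which acts on early postnatal growth. On MOE430B it read 7.87, 7.82, 8.12, 8.03 and 8.17 in P19CL6, and the P19 arrays, at 7.87 to 8.30, overlapped these. CL6G26 read 7.08, 7.38, 7.08, 6.81 and 6.86, and Zdbf2 thus fell by 0.96 (adjusted p = 8.72e-06). CL6G36 read 7.24, 7.59, 7.14, 7.40 and 6.90, a difference of -0.75 (adjusted p = 0.000127). CL6G45 had the lowest mean of the strains, reading 6.80, 6.79, 6.62, 6.98 and 6.91, a difference of -1.18 (adjusted p = 6.15e-08) or 2.27-fold. CL6G52 read 7.09, 7.22, 7.53, 7.50 and 7.30, a difference of -0.67 (adjusted p = 0.00182), with an SE of 0.12 in all 4 comparisons. As with Peg3, the arrays of each subline lay wholly below those of P19CL6. The CL6G36 and CL6G52 calls were lost with the deposited scaling, where the differences were -0.72 and -0.32 with an SE of 0.18 (adjusted p = 0.0655 and 0.325, lowest over their alternatives 4.64e-05 and 0.00123). The sublines differed among themselves by 0.51 (moderated F test, adjusted p = 0.019), a call that missed the threshold without CL6G45 replicate 3 (adjusted p = 0.0645, range over its alternatives 0.00644 to 0.0645).

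**Figure D2:**
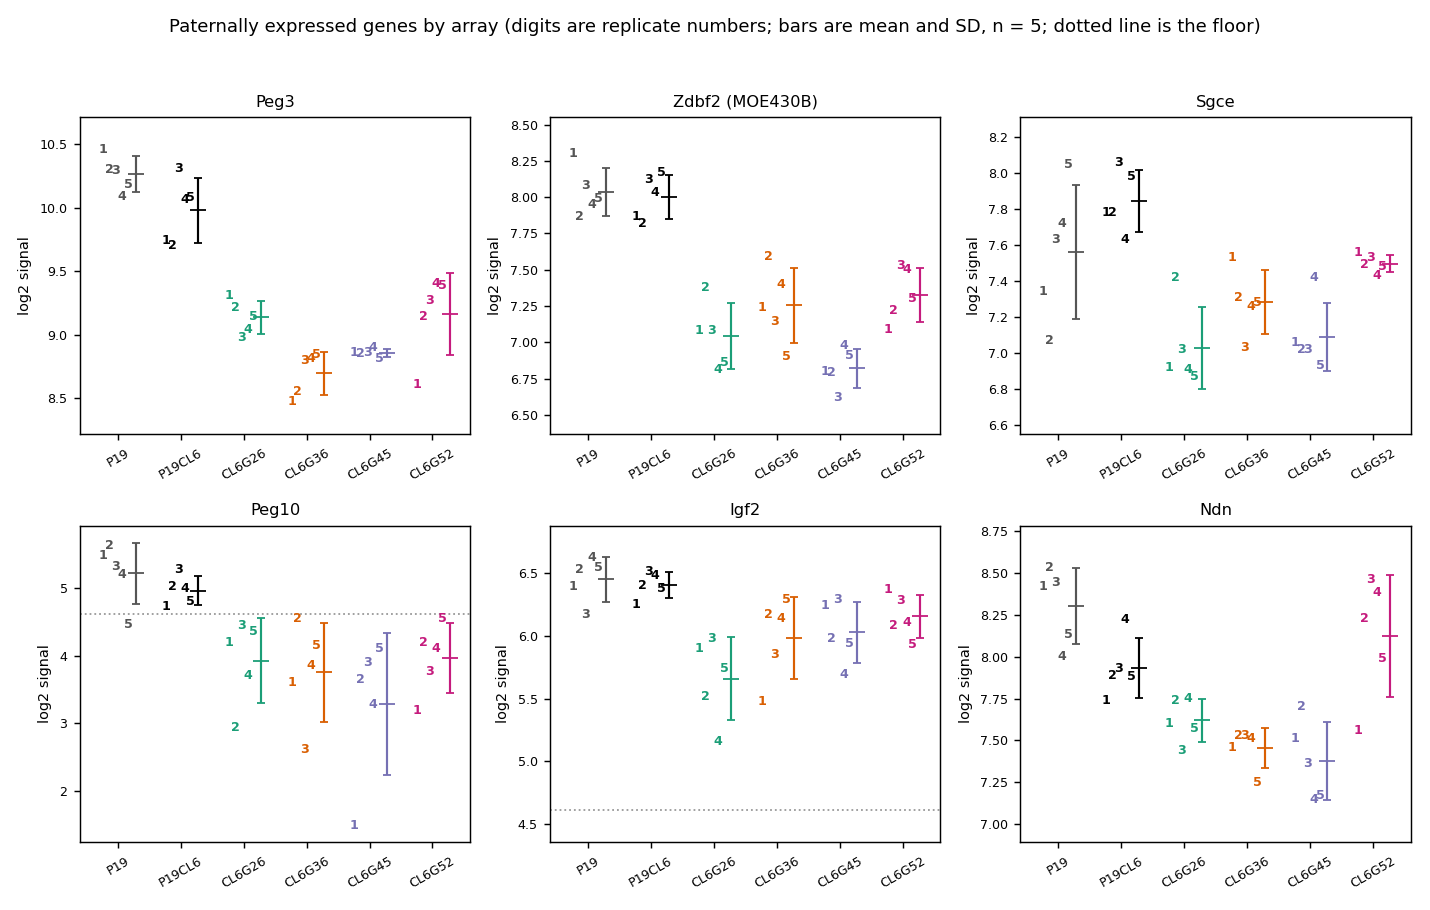
Log2 signal of 6 paternally expressed genes on each array (digits are replicate numbers) in the 6 strains, with the mean and SD of 5 arrays as bars and the floor as a dotted line where it falls in range. For Peg3 and Zdbf2 every subline array lies below every P19CL6 array, Peg10 lies under the floor in all subline arrays, and CL6G52 replicates 2 to 5 stay near the P19 level for Ndn.

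Sgce, which encodes epsilon-sarcoglycan of the muscle and nerve cell membrane, shares an imprinted promoter region with Peg10, a retrotransposon-derived gene needed for the placenta. Sgce read 7.78, 7.78, 8.06, 7.63 and 7.98 in P19CL6. It read 6.92, 7.42, 7.02, 6.91 and 6.87 in CL6G26, a difference of -0.82 ± 0.13 (SE, adjusted p = 0.000294). It read 7.53, 7.31, 7.03, 7.26 and 7.28 in CL6G36 and fell there by 0.57 (adjusted p = 0.00294). CL6G45, at 7.06, 7.02, 7.02, 7.42 and 6.93, gave a difference of -0.76 (adjusted p = 0.000162). None of these arrays reached the lowest of P19CL6. CL6G52 was close together at 7.56, 7.49, 7.53, 7.43 and 7.48, a difference of -0.35 that missed the threshold (adjusted p = 0.139). With the deposited scaling the differences were -0.63 in CL6G26 and -0.55 in CL6G36 with an SE of 0.17, and both calls were lost (adjusted p = 0.124 and 0.0739, lowest over their alternatives 7.15e-05 and 0.00158). The F test among sublines passed for Sgce with a range of 0.47 (adjusted p = 0.0261), but not without CL6G26 replicate 5 or CL6G52 replicate 3, nor with the deposited scaling (range over its alternatives 0.00716 to 0.449).

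Peg10 lay just above the floor in P19CL6, at 4.73, 5.02, 5.27, 4.99 and 4.80, and under it on every subline array. CL6G36 read 3.60, 4.55, 2.61, 3.85 and 4.15, and CL6G45 read 1.49, 3.65, 3.90, 3.28 and 4.10. The fitted differences were -1.21 in CL6G36 (adjusted p = 0.0341) and -1.68 in CL6G45 (adjusted p = 0.00376), but against a signal under the floor they have only a bound. Taken against the floor, Peg10 was at least 1.27-fold higher in P19CL6 than in each subline. CL6G26 at 2.93 to 4.44 and CL6G52 at 3.18 to 4.55 had fitted differences of -1.03 and -1.0 that missed the threshold (adjusted p = 0.24 and 0.167). The CL6G36 call was lost under 8 of 17 alternatives, among them leaving out P19CL6 replicate 2, 3, 4 or 5 or CL6G36 replicate 1 or 3 (adjusted p from 0.0173 to 0.126). Ppp1r9a, a maternally expressed gene of the actin-binding protein neurabin in the same cluster, passed in no comparison, with strain means from 6.13 in CL6G45 to 6.53 in P19CL6. Another Ppp1r9a probe set, 1456072_at, fell in CL6G45 by 0.62 (adjusted p = 0.0215), so the probe sets of this gene disagree there. Asb4, another gene of the cluster, lay above the floor on 0 of 30 arrays with both of its probe sets, at 0.0 to 3.49 and 0.39 to 4.03.

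Igf2, the paternally expressed growth factor that acts through the IGF1 receptor and is cleared by IGF2R, read 6.25, 6.40, 6.51, 6.48 and 6.38 in P19CL6 and 6.17 to 6.62 in P19. In CL6G26 it read 5.90, 5.52, 5.98, 5.16 and 5.74, all below P19CL6, a difference of -0.74 ± 0.15 (SE, adjusted p = 0.00339). This call was lost with the deposited scaling only, where the difference was -0.56 ± 0.22 (SE, adjusted p = 0.373, range over its alternatives 0.00219 to 0.373). In CL6G36 it read 5.48, 6.17, 5.85, 6.14 and 6.29, which overlaps P19CL6, and the difference of -0.42 passed narrowly (adjusted p = 0.0488). That call was lost under 12 of 18 alternatives, among them leaving out P19CL6 replicate 2, 3, 4 or 5 or CL6G36 replicate 1 or 3 (range 0.0282 to 0.422). CL6G45 and CL6G52 gave -0.38 and -0.25 (adjusted p = 0.0809 and 0.396). Igf2r, the maternally expressed receptor that removes IGF2, kept means from 7.17 to 7.40 in the 4 sublines beside 7.27 ± 0.16 in P19CL6 (SD, n = 5) and passed in none of the subline comparisons.

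In the Snrpn-Ube3a domain, the mouse counterpart of the Prader-Willi and Angelman region, Ndn moved in 2 sublines. Ndn, the paternally expressed gene of necdin, a growth suppressor of nerve cells, read 7.74, 7.89, 7.93, 8.22 and 7.88 in P19CL6. CL6G36 read 7.46, 7.53, 7.53, 7.51 and 7.25, a difference of -0.48 ± 0.13 (SE, adjusted p = 0.0118). CL6G45 read 7.51, 7.70, 7.36, 7.15 and 7.17, a difference of -0.56 (adjusted p = 0.00385). Neither subline overlapped P19CL6. Both calls were lost with the deposited scaling alone, where the differences were -0.47 and -0.46 with an SE of 0.21 (adjusted p = 0.259 and 0.253, lowest over their alternatives 0.00187 and 0.000117). CL6G26, at 7.44 to 7.75, differed by -0.31 (adjusted p = 0.318). CL6G52 read 7.56, 8.23, 8.46, 8.38 and 7.99, a difference of 0.19 (adjusted p = 0.488), with replicate 1 low among its strain. The F test found the sublines to differ, with a range of 0.75 (adjusted p = 0.000271), lost with the deposited scaling only (0.0567, lowest over its alternatives 3.90e-06). Of 4 further Ndn probe sets of the x_at kind, which can match related transcripts, 3 also fell in both CL6G36 and CL6G45, by 0.53 to 0.60 and by 0.65 to 0.81, while 1415923_at gave -0.48 and -0.51 without passing (adjusted p = 0.129 and 0.106).

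The paternally expressed neighbours of Ndn gave no call in the sublines by their read probe sets. Magel2, a paternally expressed gene that promotes ubiquitin ligase activity, had subline differences from 0.03 in CL6G26 to 0.32 in CL6G52, none of which passed. Mkrn3, the paternally expressed gene of a ubiquitin ligase that restrains puberty, had strain means from 5.32 to 5.54 and differences from P19CL6 of -0.01 to 0.06 in the sublines. Snrpn, which encodes a splicing protein of the brain, was read from the probe set that names it alone, with strain means from 5.59 in P19 to 6.31 in CL6G36 and no call. Probe sets annotated Snurf and Snrpn together stayed out of the counts. Of these, 1415895_at read 11.5 to 11.68 in P19CL6 and passed in no comparison. In all 4 sublines 1421063_s_at rose past the threshold, as given below.

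Ube3a, the ubiquitin ligase gene of Angelman syndrome, is maternally expressed in neurons and is known to be active from both copies in most other cells. It read 8.58, 8.56, 8.48, 8.49 and 8.60 in P19CL6 and 8.69, 8.79, 8.88, 8.90 and 8.88 in CL6G52, a rise of 0.29 ± 0.07 (SE, adjusted p = 0.0226). The arrays did not overlap, but the change was 1.22-fold, and the call was lost under 7 of 18 alternatives, among them leaving out P19CL6 replicate 3 or 4 or CL6G52 replicate 3, 4 or 5 (range 0.00924 to 0.752). Without CL6G52 replicate 1 the difference was 0.32 (adjusted p = 0.00924). The other Ube3a probe sets did not pass in CL6G52, with differences of 0.24, 0.02 and 0.57 on MOE430A and -0.37 on MOE430B. The F test among sublines passed with a range of 0.28 (adjusted p = 0.021) but was lost under 5 of 27 alternatives, among them leaving out CL6G52 replicate 3, 4 or 5 (range 0.00939 to 0.695).

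In the Kcnq1 domain the call concerned Phlda2, a maternally expressed gene that restrains placental growth. Phlda2 read 7.46, 7.16, 7.68, 7.80 and 8.06 in P19CL6. It read 6.56, 6.97, 6.76, 6.82 and 6.64 in CL6G36, wholly below P19CL6, a difference of -0.88 ± 0.18 (SE, adjusted p = 0.000648), and this call held under every alternative run (highest adjusted p = 0.00819). In CL6G45 it read 7.10, 7.19, 6.97, 7.05 and 6.81, which overlaps P19CL6 through P19CL6 replicate 2, a difference of -0.61 (adjusted p = 0.0166). That call was lost with the deposited scaling and without P19CL6 replicate 5 (range over its alternatives 0.00391 to 0.202). CL6G52, at 6.68 to 7.22, gave -0.59 and just missed the threshold (adjusted p = 0.0532), and CL6G26, at 7.34 to 7.55, gave -0.22 (adjusted p = 0.695). The F test among the sublines passed with a range of 0.66 (adjusted p = 0.0342), though not under 9 of 27 alternatives, which include the fit without any one CL6G26 replicate (range 0.000411 to 0.0802).

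Other genes of the Kcnq1 domain gave no call. Cd81, a tetraspanin of the cell surface, kept strain means from 9.08 to 9.23. Ascl2, a transcription factor of the placenta, had means of 5.93 in P19CL6 and 6.53 in CL6G36, a difference of 0.60 that missed the threshold (adjusted p = 0.0917). Kcnq1ot1, the long paternal RNA that silences the domain in cis, was above the floor on 7 of 30 arrays, and its differences from P19CL6 of -0.98 to 0.13 lay in that range of weak signals. Cdkn1c, a cell cycle inhibitor, and Slc22a18, a transporter, were above the floor on 0 of 30 arrays, with highest log2 signals of 4.24 for Cdkn1c and of 4.12 and 3.41 for the Slc22a18 probe sets.

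Grb10, an adaptor that dampens insulin and IGF signalling, rose in CL6G36. It read 4.71, 5.12, 5.01, 4.51 and 4.52 in P19CL6, with replicates 4 and 5 under the floor, and 5.55, 5.53, 5.70, 6.18 and 5.86 in CL6G36. The difference was 0.99 ± 0.25 (SE, adjusted p = 0.0056), or 1.99-fold, the arrays did not overlap, and the call held under every alternative run (highest adjusted p = 0.0285). CL6G45, at 5.11 to 5.71, gave 0.66 (adjusted p = 0.0681), and CL6G26 and CL6G52 gave 0.31 and 0.27 (adjusted p = 0.704 and 0.634).

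Plagl1, a paternally expressed zinc finger factor that is known to regulate other imprinted genes, was higher in CL6G36 and CL6G52. The probe set by which it was read, 1450533_a_at, lay near the floor in P19CL6, at 4.54, 4.72, 2.93, 4.58 and 4.63. CL6G36 read 5.41, 5.63, 4.30, 6.03 and 5.86, a difference of 1.17 ± 0.36 (SE, adjusted p = 0.0205), and CL6G52 read 5.40, 5.59, 5.54, 5.73 and 5.68, a difference of 1.31 (adjusted p = 0.0303). CL6G52 lay wholly above P19CL6 and CL6G36 did not. P19CL6 replicate 3 was low, and without it both calls were lost, as they were with the deposited scaling. The CL6G36 call was also lost without CL6G36 replicate 4 or 5 (range over its alternatives 0.000503 to 0.0962), and the CL6G52 call without CL6G52 replicate 2, 3, 4 or 5 (range 0.00088 to 0.119). With signals raised to the floor the differences were 0.87 and 0.95. The probe set 1426208_x_at, which by its kind can match related transcripts, read 10.50, 10.55, 10.04, 10.55 and 10.58 in P19CL6 and 10.80, 11.24, 10.94, 10.78 and 10.80 in CL6G36. That probe set rose in CL6G36 by 0.47 (adjusted p = 0.00562) and gave 0.26 in CL6G52 (adjusted p = 0.245). The probe sets thus share a call in CL6G36 and disagree in CL6G52. The F test among sublines passed for the read probe set with a range of 1.18 (adjusted p = 0.0407), was lost under 13 of 27 alternatives (range 0.00247 to 0.189), and passed for the x_at probe set with a range of 0.60 (adjusted p = 0.00199).

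**Figure D3:**
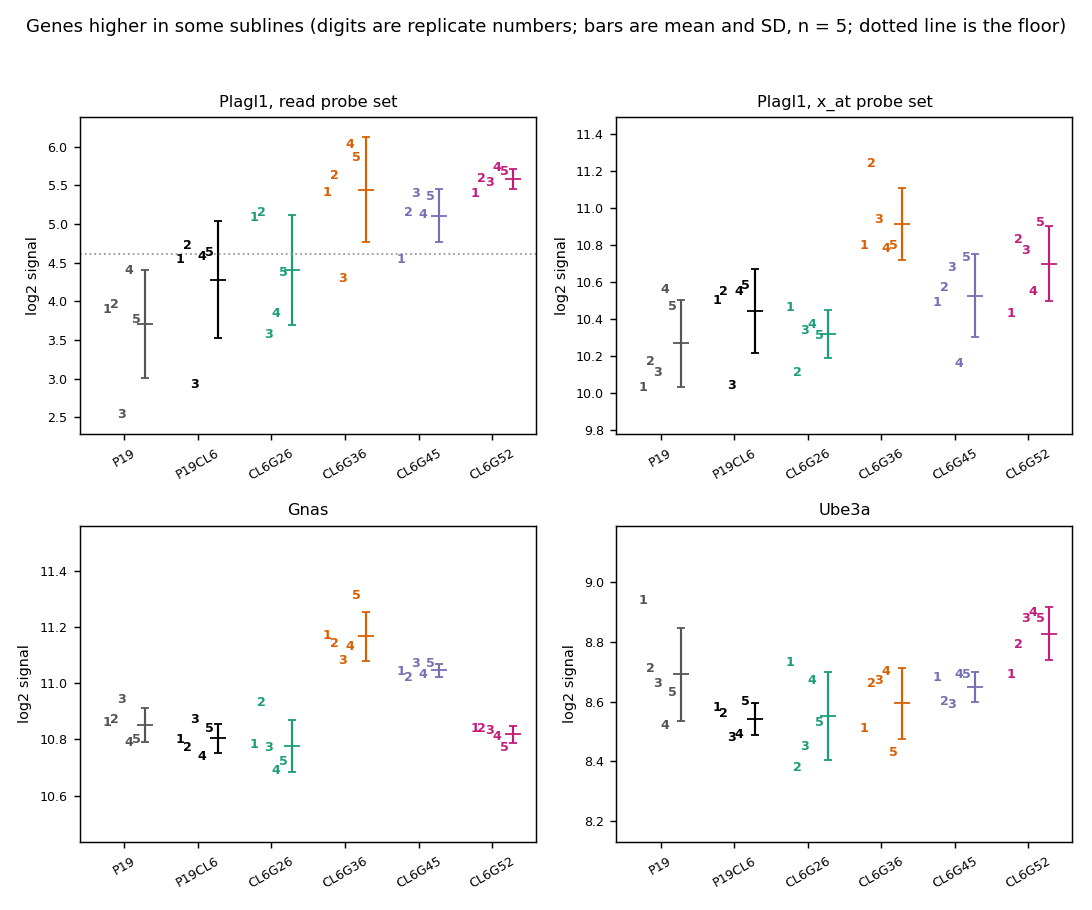
Log2 signal on each array (digits are replicate numbers) for both MOE430A probe sets of Plagl1 and for Gnas and Ube3a, with the mean and SD of 5 arrays as bars and the floor as a dotted line where it falls in range. Every CL6G36 and CL6G45 array lies above every P19CL6 array for Gnas, and every CL6G52 array does for Ube3a and for the read Plagl1 probe set.

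Gnas encodes the G protein alpha subunit that activates adenylyl cyclase, along with other products from promoters of differing imprint. It was even across replicates, at 10.80, 10.77, 10.87, 10.74 and 10.84 in P19CL6. CL6G36 read 11.17, 11.14, 11.08, 11.13 and 11.31, a rise of 0.36 ± 0.05 (SE, adjusted p = 1.42e-06), and CL6G45 read 11.04, 11.02, 11.07, 11.03 and 11.07, a rise of 0.24 (adjusted p = 0.000412). Neither overlapped P19CL6, while CL6G26 and CL6G52 gave -0.03 and 0.01. The F test among sublines passed with a range of 0.39 (adjusted p = 2.44e-07). All 3 calls were lost with the deposited scaling, where the differences were 0.28 and 0.25 with an SE of 0.14, and when the mean of a gene's probe sets was used (adjusted p up to 0.322, 0.361 and 0.462, lowest over their alternatives 1.19e-06, 0.000342 and 5.43e-08). The Gnas probe sets 1453413_at and 1443375_at passed in no subline.

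Impact, a paternally expressed inhibitor of the stress kinase GCN2, read 8.78, 8.70, 8.69, 8.88 and 8.93 in P19CL6 and 9.15, 8.86, 9.20, 9.03 and 9.01 in CL6G36. The rise of 0.26 ± 0.08 (SE, adjusted p = 0.0186) came with overlapping arrays and was lost with the deposited scaling, without P19CL6 replicate 3, without CL6G36 replicate 1 or 3, and without P19CL6 replicates 1 and 2 (range over its alternatives 0.00779 to 0.506). CL6G26, at 8.41 to 8.69, gave -0.28 (adjusted p = 0.0543). The sublines differed among themselves by 0.54 (moderated F test, adjusted p = 3.03e-05), lost with the deposited scaling only (0.394, lowest over its alternatives 1.69e-05). A further Impact probe set, 1446750_at on MOE430B, was above the floor on all 30 arrays and showed neither difference. It gave 0.02 in CL6G36 (limma, adjusted p = 0.986) and a range among the sublines of 0.2 (moderated F test, adjusted p = 0.814).

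The F test among the 4 sublines passed for 9 of the 22 genes against 23.2% of all genes: Gnas, Impact, Ndn, Peg3, Phlda2, Plagl1, Sgce, Ube3a and Zdbf2. Plagl1 alone of them had fitted subline means more than 2-fold apart, against 3.02% of all genes past both limits, and its range was 0.77 with signals raised to the floor. With the deposited scaling 2 of 22 passed, Phlda2 and Zdbf2, against 9.25% of all genes. CL6G45 had the lowest mean for Zdbf2 and Ndn, CL6G36 for Peg3 and Phlda2, and CL6G26 for Sgce and Impact.

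For P19CL6 against P19, 4 of the 22 genes passed against 4.46% of all genes (2.57% higher and 1.89% lower), with Igf2r higher in P19CL6 and Grb10, Magel2 and Phlda2 lower. The fitted change was past 2-fold for Grb10, against 0.652% of all genes, though not with signals raised to the floor. In each case P19 replicates 1, 2 and 3 differed from P19CL6 and P19 replicates 4 and 5 lay near it. Phlda2 read 8.76, 9.0 and 8.89 in the first 3 P19 replicates and only 7.84 and 7.82 in the last 2. The P19CL6 arrays, given above, lay below the first 3, and the difference over all 5 arrays was -0.83 ± 0.18 (SE, adjusted p = 0.0122). Magel2 read 8.27, 8.23 and 8.30 and then 7.34 and 7.35 in P19, against 7.26, 7.28, 7.23, 7.34 and 6.97 in P19CL6, a difference of -0.68 (adjusted p = 0.0122). Grb10 read 6.16, 6.40 and 6.71 and then 4.88 and 4.84 in P19, a difference of -1.02 (adjusted p = 0.0179). Igf2r went the other way, at 5.99, 6.08 and 6.58 and then 7.22 and 7.31 in P19, against 7.31, 7.29, 7.21, 7.05 and 7.50 in P19CL6, a difference of 0.63 (adjusted p = 0.0325). A further Igf2r probe set, 1424112_at, read 6.64, 6.49 and 6.59 and then 7.28 and 7.52 in P19 and gave 0.37 (adjusted p = 0.111).

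**Figure D4:**
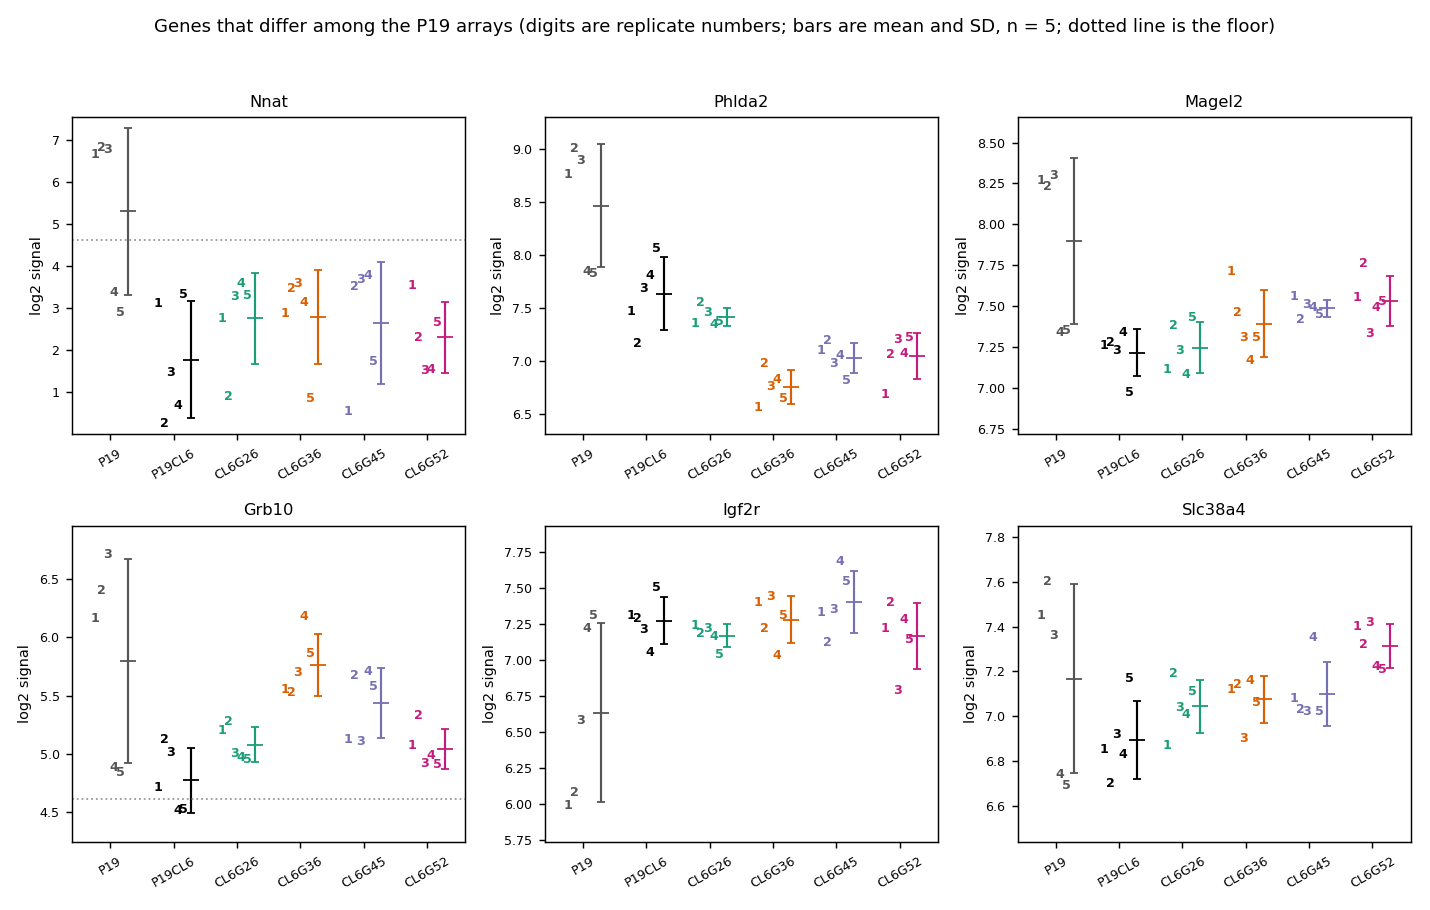
Log2 signal of 6 imprinted genes on each array (digits are replicate numbers) in the 6 strains, with the mean and SD of 5 arrays as bars and the floor as a dotted line where it falls in range. P19 replicates 1 to 3 lie above P19 replicates 4 and 5 for Nnat, Phlda2, Magel2, Grb10 and Slc38a4 and below them for Igf2r, and replicates 4 and 5 lie at or near the P19CL6 arrays.

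The P19 result thus rested on which P19 arrays entered the fit. Without P19 replicate 1, 2 or 3 the count was 0, and without replicate 4 or 5 it was 7. The share of all genes was not computed for these fits, so these counts cannot be set against it. Without replicates 4 and 5 together, 10 of 22 genes passed against 19.6% of all genes: Igf2r, Sgce and Snrpn higher in P19CL6, and Grb10, Magel2, Ndn, Peg3, Phlda2, Slc38a4 and Ube3a lower. In that fit Grb10 fell by 1.65 (adjusted p = 7.87e-08), Phlda2 by 1.25 (adjusted p = 7.35e-08) and Magel2 by 1.05 (adjusted p = 1.42e-08), and Igf2r rose by 1.05 (adjusted p = 1.16e-06). The highest adjusted p over the alternatives of each of these 4 genes was 1. Without replicates 1 to 3, limma called 0 of the 22 genes and 0 of all genes, with 0 of 22 and 442 of 13181 at an unadjusted p under 0.05. The count was also 0 with the deposited scaling, where 0.364% of all genes passed. There, 6 of 22 genes had an unadjusted p under 0.05 (limma), beside 9.75% of all genes at that unadjusted limit. It was 0 as well with only these strains in the fit and without P19CL6 replicates 1 and 2, where the share of all genes was not computed. Igf2r missed the threshold without P19CL6 replicate 1, 2 or 5 as well. Summed fibroblast markers ran from 223 to 254 in P19 replicates 1 to 3, from 140 to 211 in replicates 4 and 5 and from 135 to 207 in P19CL6, and Col3a1, Pdgfrb, Lum, Postn and Fap were above the floor on no array. Of the fibroblast markers above it on all 30 arrays, Thy1 read 6.08, 6.17 and 6.57 and then 4.83 and 5.12 in P19. Col1a2 read 5.86, 6.05 and 5.81 and then 5.18 and 5.87 in P19, so its replicate 5 lay with the first 3. It fell by 0.73 in P19CL6 (limma, adjusted p = 0.0122). Summed trophoblast markers ran from 494 to 523 in P19 replicates 1 to 3 and from 692 to 768 in replicates 4 and 5. Among them Tfap2c went the other way, at 5.13, 5.01 and 4.83 and then 4.03 and 4.33. In the same order, extraembryonic endoderm markers ran from 294 to 300 and from 390 to 408. Neural markers ran from 683 to 754 and from 890 to 893, and mesoderm and heart markers from 263 to 320 and from 320 to 402. Each of these lists also held a gene that went the other way in P19. Dab2, of the endoderm list, read 6.14, 6.0 and 5.99 and then 5.75 and 5.9. Elavl3, of the neural list, read 6.4, 6.56 and 6.19 and then 4.49 and 5.7. Actc1, of the mesoderm and heart list, read 5.96, 5.98 and 6.02 and then 5.64 and 5.8. The part of these markers in the difference was not tested.

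Nnat and Dcn showed the same split at low signal. Nnat, a paternally expressed gene of the proteolipid neuronatin, read 6.64, 6.82 and 6.76 in the first 3 P19 replicates, against 3.37 and 2.90 in the last 2. Those 3 arrays were the only ones of 30 above the floor, so Nnat was not tested in the main fit. Over all 5 P19 arrays, and taken against the floor, Nnat was at least 1.61-fold higher in P19 than in P19CL6, where no array was above the floor. Dcn, the maternally expressed gene of the matrix proteoglycan decorin, read 5.84, 5.28 and 6.0 and then 1.96 and 2.18 in P19 on probe set 1449368_at, which was above the floor on 4 of 30 arrays, the other being P19CL6 replicate 2 at 4.69. The tested Dcn probe set on MOE430B, above the floor on 9 of 30 arrays, did not show this split, at 3.50, 2.05 and 4.73 and then 3.24 and 4.05, and it passed in no comparison. Slc38a4, a paternally expressed amino acid transporter, read 7.45, 7.60 and 7.36 and then 6.74 and 6.69 in P19, against 6.70 to 7.17 in P19CL6. Over all arrays its difference from P19 was -0.27 (adjusted p = 0.207), and in CL6G52, at 7.21 to 7.42, it was 0.42 above P19CL6 and just missed the threshold (adjusted p = 0.0585). A further Slc38a4 probe set, 1428111_at, was above the floor on all 30 arrays. It passed among the sublines with a range of 0.47 (moderated F test, adjusted p = 0.0147). It gave -0.23 in CL6G36 and -0.17 in CL6G45, against 0.18 and 0.2 for the read probe set, and none of these passed.

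Of the 22 tested genes, by their read probe sets, 14 passed in at least 1 test and 8 in none: Ascl2, Cd81, Dcn, Kcnq1ot1, Mkrn3, Ppp1r9a, Slc38a4 and Snrpn. The 8 genes with a probe set but no test were Usp29, Zim1, Asb4, Cdkn1c, Slc22a18, Nnat, Nap1l5 and Gatm. Nap1l5, a nucleosome assembly gene, and Gatm, a creatine synthesis enzyme, were above the floor on 0 of 30 arrays, with highest log2 signals of 3.92 and 4.25.

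Genes that maintain imprints were counted beside the members. Of 27 such factors, 24 were tested. In limma 0 of the 24 passed for P19CL6 against P19 and for CL6G26 against P19CL6, beside 4.46% and 1.24% of all genes. Dnmt3a, a methyltransferase that sets down new methylation, rose by 1.10 in CL6G36 (adjusted p = 3.71e-05), 0.75 in CL6G45 (adjusted p = 0.00314) and 1.02 in CL6G52 (adjusted p = 0.000439). Uhrf1, which brings the maintenance methyltransferase to newly copied DNA, fell by 0.29 in CL6G36 (adjusted p = 0.00957). In CL6G36 the count was 1 higher and 1 lower of 24, beside 13.5% of all genes. In CL6G45 the count was 2 higher (Dnmt3a and Dnmt3b) and 1 lower (Suz12, at -0.35), and in CL6G52 it was 2 higher (Dnmt3a and Zfp445, at 0.30), beside 13.3% and 3.18% of all genes. Of 29 further genes of IGF signalling, 22 were tested, with 6 higher and 2 lower in CL6G36, 4 higher in CL6G45, and 1 lower each in CL6G26 (Igf2bp1, at -0.27) and CL6G52 (Pik3r1, at -1.97), beside 13.5%, 13.3%, 1.24% and 3.18% of all genes. Foxo3, a transcription factor held back by this pathway, rose by 0.63 in CL6G36 (adjusted p = 0.000658) and 0.49 in CL6G45 (adjusted p = 0.00739). In P19CL6 against P19, 2 of the 22 passed, both lower, beside 4.46% of all genes. These were the receptor substrates Irs4 and Irs1, which fell by 1.31 and 0.48 (adjusted p = 0.0203 and 0.0349).

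Of 53 further imprinted genes outside the set, 30 were tested, and 1 was higher in CL6G26, 2 higher and 2 lower in CL6G36, 1 higher and 5 lower in CL6G45, and 1 higher in CL6G52, beside 1.24%, 13.5%, 13.3% and 3.18% of all genes. Calcr, the calcitonin receptor gene in the Peg10-Sgce cluster, rose by 1.86 in CL6G36 (adjusted p = 9.40e-06), 1.82 in CL6G45 (adjusted p = 1.77e-05) and 1.21 in CL6G52 (adjusted p = 0.00747). Calcr and Sgce thus changed in opposite directions in CL6G36 and CL6G45. Sfmbt2, a paternally expressed Polycomb gene of the placenta, fell by 1.72 in CL6G45 (adjusted p = 0.000315), and Ddc, a neighbour of Grb10 that makes dopamine and serotonin, fell there by 0.73 (adjusted p = 0.00314). In P19CL6 against P19, 2 of the 30 passed, beside 4.46% of all genes. H13 fell by 0.78 and Commd1 rose by 0.25 (adjusted p = 0.0238 and 0.0468).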

How the data were processed

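Expression was measured on Affymetrix MOE430A and MOE430B arrays of 6 strains with 5 replicates each. The deposited values are linear signal intensities that the authors computed with GCOS, per the submitters' processing notes; neither its version nor its scaling target is given in the sources used here. Means of the deposited signals, trimmed by 2% at each end, spanned 96.6 to 183.3 (MOE430A) and 18.62 to 30.42 (MOE430B). They lay more than 5% off their average, so quantile normalization was applied within each array type. Array medians were 30.2 to 53.4 and 10.6 to 16.5, and precision is limited by how many arrays there are. A minimum signal of 1 was set before the log2 transform of the deposited values. The floor was the 40th percentile on MOE430A and the 60th on MOE430B. Of 22690 and 22575 probe sets, 64 controls were left out of each, and the platform annotation gives 1 symbol for 20380 and 14661, several for 691 and 245 and none for 1555 and 7605. Tests were run on 15068 and 12131 probe sets.

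The brightest tested probe set was read for each gene, x_at kinds last and MOE430A before MOE430B. Tests used limma 3.58.1 in R 4.3.3, with a group-means model over the 30 arrays of a type, eBayes with trend, two-sided, Benjamini-Hochberg over the tested probe sets of a type. The fit was tested on simulated data. Same-numbered replicates did not deviate together (correlations -0.1 to 0.08), so the replicate number was not a block. Levels were not compared between probe sets. All members with a single-symbol probe set are named, with values for those past the threshold or above the floor on all 30 arrays. Of the other lists, at most 4 genes per list and comparison are named, by smallest adjusted p. Members and lists were chosen with earlier results of these data known. Probe sets with several symbols were kept out of the gene results. Alternatives were the deposited scaling, no filter, a strict filter, signals raised to the floor, the mean of a gene's probe sets, only the strains compared, a replicate block, and leaving out arrays.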

Additional observations from a re-analysis of the deposited data

Results flagged for a closer look

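In 8 of 132 groups of 5 arrays, an array of an imprinted gene lay far from the others of its strain, where chance gives about 1 in 20. The low ones were Cd81 in CL6G36 replicate 1 at a log2 signal of 8.96, Ndn in CL6G36 replicate 5 at 7.25, Plagl1 in P19CL6 replicate 3 at 2.93 and Kcnq1ot1 in CL6G52 replicate 1 at 0.67. The high ones were Sgce in CL6G26 replicate 2 at 7.42 and in CL6G45 replicate 4 at 7.42, Slc38a4 in CL6G45 replicate 4 at 7.35 and Ppp1r9a in P19CL6 replicate 1 at 6.97. The Plagl1 array bears on calls, since both Plagl1 calls were lost without P19CL6 replicate 3.

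The difference from P19CL6 itself differed between sublines for 9 of the 22 genes, by the moderated F test of limma, against 23.2% of all genes. With the deposited scaling 2 of 22 passed, Phlda2 and Zdbf2, against 9.25% of all genes. Of the 9 calls, 0 held under every alternative run. The range of the subline means was 0.39 for Gnas, 0.54 for Impact, 0.75 for Ndn, 0.47 for Peg3, 0.66 for Phlda2, 1.18 for Plagl1, 0.47 for Sgce, 0.28 for Ube3a and 0.51 for Zdbf2.

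Probe sets that the annotation gives to more than a single gene stayed out of the counts. For the probe set annotated Mir675 and H19, 24 of 30 arrays were above the floor. It read 5.87, 6.04, 4.83, 5.16 and 5.34 in P19CL6 and 3.41, 4.18, 4.07, 4.41 and 4.28 in CL6G26, where all 5 arrays were under the floor. The fitted difference was -1.38 ± 0.24 (SE, limma, adjusted p = 0.000825). Taken against the floor, which was not tested, it was at least 1.78-fold higher in P19CL6. A probe set annotated Snurf and Snrpn, 1415895_at, was above it on 30 of 30 and passed in no comparison. Of the 6 probe sets so annotated, 1421063_s_at, singled out after its values were seen, rose by 0.40, 0.46, 0.29 and 0.34 in CL6G26, CL6G36, CL6G45 and CL6G52 (adjusted p = 0.031, 0.00162, 0.0469 and 0.0477).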

How the results depend on the processing

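With the deposited scaling the counts of imprinted genes past the threshold were 0 for P19CL6 against P19, 1 for CL6G26, 3 for CL6G36, 4 for CL6G45, 0 for CL6G52 and 2 for the F test, against 4, 4, 11, 7, 4 and 9. Of the 39 calls, 29 were lost with that scaling, 12 of them under no other alternative, and 8 held under every alternative run for them. For P19CL6 against P19 the count was 0 with only the strains of the comparison, 0 without P19CL6 replicates 1 and 2, 10 without P19 replicates 4 and 5 and 0 without P19 replicates 1 to 3. Leaving out each replicate in turn gave 0 to 7 for P19CL6 against P19, 4 to 5 for CL6G26, 7 to 11 for CL6G36, 6 to 7 for CL6G45, 2 to 5 for CL6G52 and 6 to 10 for the F test. With the replicate number as a block the counts were 4, 4, 10, 7, 4 and 10, though the numbers do not pair the samples. Of the fits with a block or without 1 array, only that without CL6G52 replicate 1 had its share of all genes computed. No call changed direction under any alternative run for it, while 8 of 110 differences, all short of the threshold and up to 0.26 in size, turned sign with the deposited scaling. Signal over background limits Peg10, Kcnq1ot1, Dcn and the read Plagl1 probe set, and the 8 untested genes cannot be compared. The cause of the dependence on the scaling was not tested.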
